A study of Mus musculus with 7 samples.

Results

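The 8 genes described here, Nr5a2, Rarg, Klf5, Klf17, Dppa2, Dppa4, Yap1 and Tead4, encode single-copy factors that act in activation of the mouse zygotic genome. They were taken by name, all 8 were found in the RefSeq annotation of 49943 genes on chromosomes 1 to 19, X and Y, and each was measured over its span extended by 2.5 kb at both ends, its window. The mark measured was H3K4me1, a histone modification found at enhancers, both active and primed, and along active genes. It was read by CUT&Tag, in which an antibody directs the Tn5 transposase to marked chromatin so that the sequenced fragments lie there. The zygotes had no treatment and came from hormone-primed females. Pregnant mare serum gonadotropin was given at 5 IU, then human chorionic gonadotropin (hCG) at 5 IU after 46 to 48 h, and collection was at 23 post-hCG, for which no unit is stated. The mouse strain and the animals' ages are not stated in the labels of the H3K4me1 samples. The series has 7 samples, and the 2 H3K4me1 batches, each from the zygotes of 1 mouse, stand in 1 pooled table. The H3K27me3 and transcriptome samples were not analysed here.

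At fertilisation the genome is transcriptionally silent and the embryo runs on maternal products. Transcription starts in a minor wave in the zygote and a major wave in the 2-cell embryo. The nuclear receptor Nr5a2 and the Krüppel-like factors Klf5 and Klf17 bind DNA and activate genes around these stages. Dppa2 and Dppa4 are small chromatin proteins with a SAP domain that bind DNA as a pair and, in mouse embryonic stem cells, act upstream of Dux. Yap1 is the coactivator held back by the Hippo pathway, and Tead4 is a DNA-binding partner of Yap1 that is required for the trophectoderm. A level of H3K4me1 at these genes describes the chromatin of the genes themselves, not the activity of their proteins.

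Of 16 zygote libraries, 14 reached 5000 fragments and were pooled, which gave 1404305 fragments, from 7106 to 197312 per library with a median of 96240. Library names carry a number 4 (3 libraries kept) or 5 (11 libraries kept) that the labels tie to neither batch, so the pool is 1 sample and allows neither a test nor an SD. Libraries are called by that number followed by the number of the cell, 5-4 for instance. Levels are fragment densities divided by the autosomal average of 5.62 fragments per 10 kb, and brackets give exact 95% Poisson intervals, which cover counting error only. The 10 oocyte and zygote genes set as markers had a median level of 1.80, with 5 intervals above 1 (50%) and 0 below. The 10 cumulus and granulosa cell genes had a median of 1.21, with 4 above (40%) and 2 below (20%). Over all autosomal protein-coding genes, 29.5% lay above 1 and 7.17% below. H3K4me1 levels do not measure expression, so these values do not tell which cells were present, and the study removed cumulus cells at collection.

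Promoter sequences are shown for the 3 start sites on which the fragments bear most. The promoters at the upstream start of Nr5a2 and at the start of Klf17 were each overlapped by 1 fragment, and the start of Yap1 had none within 1 kb although the gene window had an interval above 1. The sequences are RefSeq's, on GRCm38.p6 (mm10), all on the minus strand, and run 5′ to 3′ from 250 bases before to 50 after the start. They lie at chr1:136960399-136960698 for Nr5a2, chr4:117765617-117765916 for Klf17 and chr9:8004547-8004846 for Yap1. Capitals mark matches, on either strand, to 6 motifs, namely GGAATG of the TEAD factors, TCAAGGNCA of Nr5a2 and its relatives, CCNCNCCC of the Krüppel-like factors, the CCAAT box CCAAT, the TATA box TATAAA and the nuclear receptor half-site AGGTCA. Matches of different motifs may overlap.
Nr5a2 upstream start: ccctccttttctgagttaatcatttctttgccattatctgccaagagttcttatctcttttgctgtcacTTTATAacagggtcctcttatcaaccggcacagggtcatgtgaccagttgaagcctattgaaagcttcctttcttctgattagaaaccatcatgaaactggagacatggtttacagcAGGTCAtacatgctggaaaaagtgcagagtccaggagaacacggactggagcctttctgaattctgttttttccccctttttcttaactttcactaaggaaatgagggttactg
Klf17 start: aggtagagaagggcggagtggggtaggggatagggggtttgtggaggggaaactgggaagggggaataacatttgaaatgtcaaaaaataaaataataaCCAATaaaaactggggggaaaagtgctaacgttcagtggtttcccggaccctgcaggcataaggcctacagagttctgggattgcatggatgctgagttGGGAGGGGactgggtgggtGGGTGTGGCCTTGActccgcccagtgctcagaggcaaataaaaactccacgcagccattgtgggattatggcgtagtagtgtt
Yap1 start: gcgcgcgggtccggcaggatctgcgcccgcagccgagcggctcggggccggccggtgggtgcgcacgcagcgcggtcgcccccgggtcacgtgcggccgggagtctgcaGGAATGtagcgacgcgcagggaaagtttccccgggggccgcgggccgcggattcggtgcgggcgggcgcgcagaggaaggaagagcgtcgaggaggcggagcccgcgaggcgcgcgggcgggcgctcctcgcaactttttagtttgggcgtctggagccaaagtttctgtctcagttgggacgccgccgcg

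The 3 promoters differed in base composition. That of Yap1 had 74% G and C and 49 CpG dinucleotides, at percentile 99.0 of the 32851 promoters in the table by CpG number, that of Klf17 had 50.7% and 6, and that of Nr5a2 had 42% and 2. The Yap1 promoter held 1 TEAD match, which 14.7% of all promoters have. The Klf17 promoter held 1 match to the Nr5a2 motif, which 1.62% of all promoters have, 2 Krüppel-like matches, which 49.5% have, and 1 CCAAT box, which 37.4% have. The upstream promoter of Nr5a2 held 1 TATA box, found in 13.6% of promoters, and 1 half-site, found in 16.3%. A match is a description of the letters and not a bound site. The table held promoters for 4 of the 8 genes, with 6 start sites in all.

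Start sites themselves carried few fragments. Within 1 kb of the start there was 1 fragment at each of the 2 Nr5a2 starts, the Klf17 start and the 2 Rarg starts, a level of 0.889 (0.0225 to 4.95), and 0 at the Yap1 start, where 3 fragments would have given a level of 2.67. Within 2.5 kb the counts were 4 at the upstream Nr5a2 start, 3 at the other Nr5a2 start, 3 at Yap1, and 2 at Klf17 and at each Rarg start. All intervals hold 1, so neither a peak nor a gap at these starts was detectable at this depth.

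Across the gene windows, levels ran from 0.750 at Dppa2 to 2.29 at Dppa4, with a median of 1.18. Over 20665 autosomal protein-coding genes the median was 1.21, and the quartiles were 0.835 and 1.66. Dppa4, with 2.29 (1.40 to 3.53), and Yap1, with 1.44 (1.11 to 1.85), had intervals above 1, and none of the 8 had an interval below 1. These 2 of 8 make 25%, beside 29.5% of all autosomal protein-coding genes with an interval above 1 and 7.17% with an interval below 1. By this count the factor genes were near the coding background. Long genes reach such an interval more easily: among genes with 40 to 80 fragments expected, the range of Nr5a2, Yap1 and Tead4, 43.1% lay above 1 and 9.66% below, and among genes with 5 to 20 expected, the range of the other 5, 29.4% lay above and 5.48% below. Summed over the 8 windows the level was 1.21 (1.07 to 1.37) from 252 fragments.

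**Figure D1:**
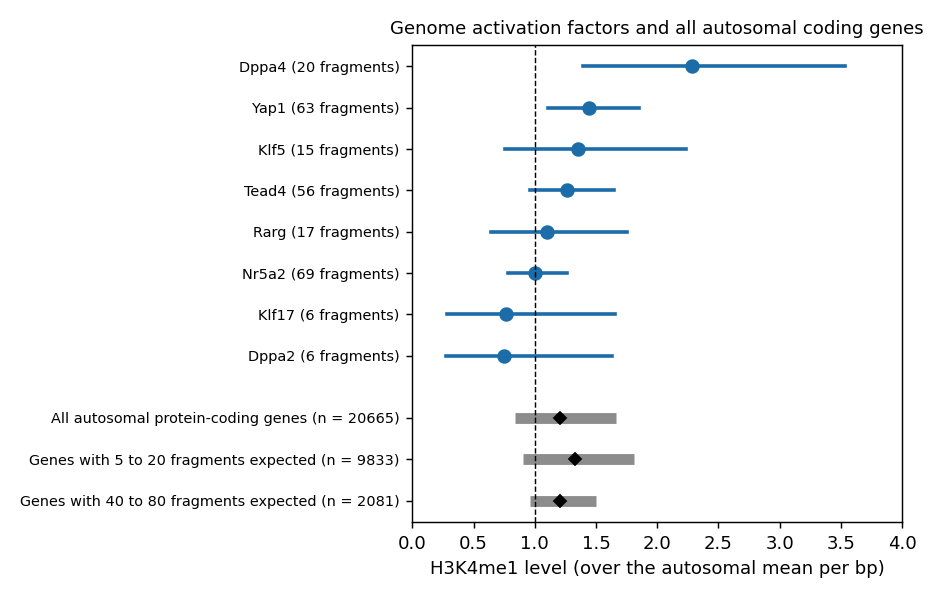
H3K4me1 level of the 8 factor genes (blue points, with exact 95% Poisson intervals as lines), ordered by level, above all autosomal protein-coding genes and the genes of similar length (black diamonds are medians, grey bars run from the lower to the upper quartile). The horizontal axis is the level over the autosomal mean, and the dashed line is the mean; Dppa4 at 2.29 and Yap1 at 1.44 have intervals to its right, and the other 6 intervals cross it.

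The order from high to low was Dppa4, Yap1, Klf5, Tead4, Rarg, Nr5a2, Klf17 and Dppa2. None of the 7 neighbouring pairs in this order differed beyond counting error. Of all 28 pairs, 6 had a ratio whose interval lay above 1: Dppa4 over each of Tead4, Rarg, Nr5a2, Klf17 and Dppa2, and Yap1 over Nr5a2, the last with a ratio of 1.45 (1.01 to 2.06). These intervals are not adjusted for the number of pairs. The place of Dppa4 depended on the window. Over the gene bodies alone Dppa4 had 1.18, below Yap1 with 1.49, Rarg with 1.34, Klf5 with 1.33 and Tead4 with 1.28. It stayed above Nr5a2 with 0.996, Dppa2 with 0.963 and Klf17 with 0.790. The ratios of pairs were not recomputed over the gene bodies.

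Among the nuclear receptors, Nr5a2 lay at the autosomal mean. The gene spans 117.887 kb on chromosome 1 (136842562 to 136960448), and its window held 69 fragments, where 69.1 were expected, a level of 0.999 (0.777 to 1.26). This was percentile 28.9 among 1104 coding genes of similar length, whose median was 1.21. Fragments came from 12 of 14 libraries, with levels from 0 in libraries 4-2 and 5-11 through a median of 0.880 to 3.01 (1.55 to 5.25) in library 4-4, which alone gave 12 of the 69. Library 4-4 was the only library with an interval above 1 at Nr5a2, beside 6.85% of all values of a coding gene in 1 library. Along the gene, the 10 kb bin between 50.4 and 60.4 kb downstream of the upstream start was highest, with 11 fragments of 9 libraries and a level of 1.96 (0.977 to 3.50), and 1 bin further in had a single fragment. Library 4-4 gave none of those 11 fragments; it had 4 fragments in the bin between 30.4 and 40.4 kb and 3 in the bin between 20.4 and 30.4 kb.

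Chromatin around Nr5a2 carried more of the mark than the gene did, though within counting error. No other protein-coding gene lay within 100 kb of the window, and only 3 lay within 500 kb, which is percentile 4.10 of gene density. The 100 kb flanks had a level of 1.31 (1.10 to 1.54), above 1 as for 51.8% of coding genes, and with 50 kb flanks the level was 1.05 (0.799 to 1.35). The gene lay at 0.764 times its flanks (0.565 to 1.02), and without library 4-4 or 5-3 at 0.677 (0.488 to 0.929) or 0.728 (0.534 to 0.985), both below 1. Without library 5-10 the flanks had 1.14 (0.938 to 1.36), an interval that holds 1. The ratio of the gene to its flanks was then 0.835 (0.599 to 1.15). The highest flank bins, 80 to 90 kb beyond the low end of the window and 70 to 80 kb beyond the high end, each had 15 fragments and a level of 2.67 (1.49 to 4.40), and neither overlaps a protein-coding gene.

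Rarg, the retinoic acid receptor gamma, spans 22.585 kb on chromosome 15 (102234938 to 102257522). Its window held 17 fragments from 8 libraries, a level of 1.10 (0.639 to 1.76), and library levels ran from 0 in 6 libraries through a median of 0.867 to 3.48 (1.28 to 7.57) in library 5-7. That library gave 6 of the 17 fragments, 35.3%, a share reached or passed by the leading library at 10.5% of coding genes with a like number of fragments. Without it the level was 0.798. All 17 fragments lay in the gene body and 0 in the 2.5 kb beyond either end. Rarg has the densest surroundings of the 8, with 12 other coding genes in its flanks, and the level of the flanks was 1.17 (0.974 to 1.38), so that the gene stood at 0.941 times its flanks (0.532 to 1.56).

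Of 12 other nuclear receptor genes, 6 (50%) had an interval above 1 and 0 below, and the median was 1.52. The share above was 29.5% of coding genes and 43.1% of those with 40 to 80 fragments expected. Long genes stand in this list, with 369 fragments expected at Rarb. Rxra, the retinoid X receptor that pairs with the retinoic acid receptors, was highest with 2.13 (1.75 to 2.57). Rara, the alpha counterpart of Rarg, had 1.88 (1.41 to 2.44), and Rarb had 0.911 (0.816 to 1.01). Nr2c1, an orphan receptor, was lowest with 0.716 (0.449 to 1.08). Nr5a1, the paralogue of Nr5a2 that acts in the gonads and adrenal, had 1.79 (1.18 to 2.60).

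The Krüppel-like factors bind GC-rich sequence through zinc fingers. Klf5, which acts in both lineages of the blastocyst, spans 14.722 kb on chromosome 14 (99298691 to 99313412) and held 15 fragments from 8 libraries, a level of 1.35 (0.757 to 2.23). Library levels of Klf5 ran from 0 in 6 libraries through a median of 1.20 to 3.80 in library 4-2, and no library gave more than 3 fragments. Of the 15 fragments, 11 lay in the part of the window more than 10 kb from its low end, with a level of 2.01 (1.00 to 3.60). The flanks had a level of 0.907 (0.740 to 1.10), and the gene stood at 1.49 times its flanks (0.805 to 2.58). The highest flank bin, 90 to 100 kb beyond the low end of the window and inside Pibf1, had 16 fragments and a level of 2.85 (1.63 to 4.62).

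Klf17, supplied to the egg as a maternal product, is the shortest of the 8 genes at 9.008 kb on chromosome 4 (117756659 to 117765666). Its window held 6 fragments from 5 libraries, a level of 0.762 (0.280 to 1.66), and 9 libraries had 0. The highest library, 4-5, had 2 fragments and a level of 3.48. Klf17 had the highest flanks of the 8 genes, at 1.55 (1.33 to 1.80), and the gene stood at 0.492 times its flanks (0.178 to 1.09), percentile 8.47 of coding genes. Without library 4-5 this ratio was 0.376 (0.101 to 0.982), with an interval below 1. The high side of the flanks, with 1.89 (1.54 to 2.28), exceeded the low side, with 1.21 (0.940 to 1.53). On that side the bin 90 to 100 kb away, inside the glycine transporter gene Slc6a9, held 20 fragments of 10 libraries and reached a level of 3.56 (2.17 to 5.50). It was the only bin near any of the 8 genes with at least 3 times the mean and 20 fragments of 5 libraries. Slc6a9 itself had a level of 2.55 (1.93 to 3.31).

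Of 14 other Krüppel-like factor genes, 2 (14.3%) had an interval above 1, beside 29.5% of coding genes, and 0 below, with a median of 1.31. Klf16 was highest with 2.70 (1.71 to 4.05), and Klf6, an early response gene, was lowest with 0.640 (0.208 to 1.49). Klf5 and Klf17 lay on either side of that median, each with an interval that holds it.

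**Figure D2:**
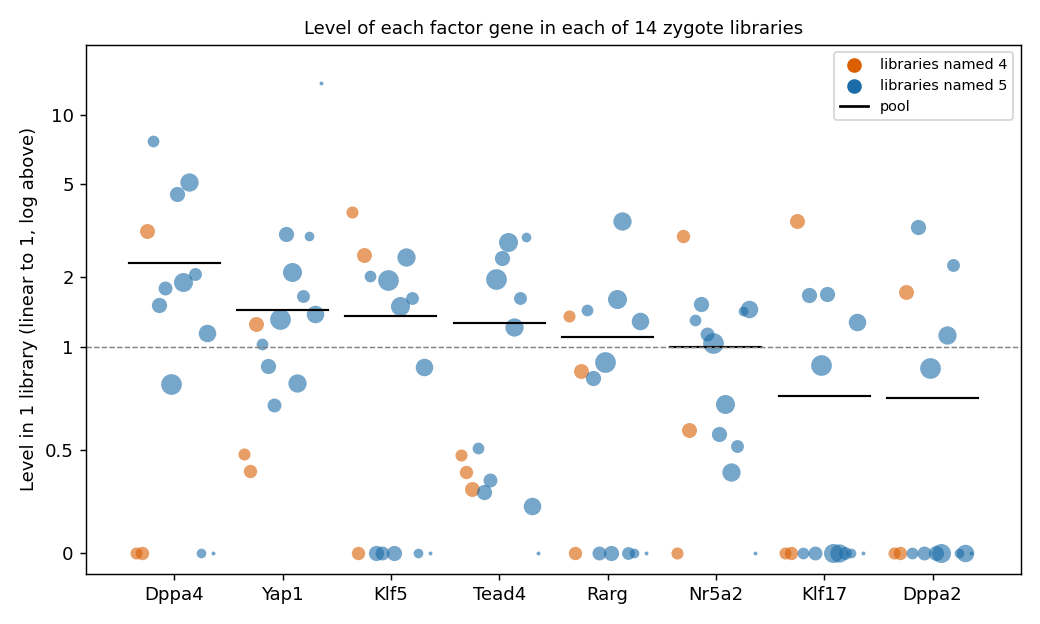
Level of each factor gene (horizontal axis, ordered by pooled level) in each of 14 zygote libraries. Each point is a library, orange for those named 4 and blue for those named 5, with its area in proportion to depth, and the black bar is the pool. The vertical axis is linear up to 1 and logarithmic above. Yap1 is the only gene with a fragment in all 14 libraries, while Klf17 and Dppa2 are at 0 in 9, and the highest point is the shallow library 5-11 at Yap1 with 13.7.

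Dppa4 and Dppa2 lie 15.981 kb apart on chromosome 16, and with every fragment counted the levels of their windows differed. Dppa4 (48283735 to 48294292) held 20 fragments from 10 libraries, a level of 2.29 (1.40 to 3.53), and was at percentile 88.4 among 3134 coding genes of similar length. Dppa2 (48310274 to 48319513) held 6 fragments from 5 libraries, a level of 0.750 (0.275 to 1.63), at percentile 18.2. The ratio of Dppa4 to Dppa2 was 3.05 (1.18 to 9.28). With overlapping fragments of 1 library counted once, Dppa4 had 1.99 (1.14 to 3.23) and Dppa2 had 0.814 (0.299 to 1.77). These intervals overlap, and the ratio was not recomputed. Over the gene bodies alone the levels were 1.18 and 0.963. Library levels of Dppa4 ran from 0 in 4 libraries through a median of 1.65 to 7.69 (1.58 to 22.5) in library 5-1, and those of Dppa2 from 0 in 9 libraries to 3.29 in library 5-2. Dppa4 had more fragments than Dppa2 in 7 libraries, fewer in 1 and the same number in 2, and 4 libraries had none at either gene.

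The excess at Dppa4 lay just outside the gene. Of its 20 fragments, 11 (55.0%) fell in the 2.5 kb beyond the high end of the gene, from 0.123 to 1.86 kb past it, where the level was 7.83 (3.91 to 14). The gene body had 7 fragments of 7 libraries and a level of 1.18 (0.474 to 2.43), close to 0.963 (0.313 to 2.25) for the body of Dppa2, and the 2.5 kb beyond the low end had 2 fragments. Counted over the gene body alone, Dppa4 no longer had an interval above 1. The 11 fragments came from 5 libraries, 3 each from 5-1 and 5-7, 2 each from 4-5 and 5-5, and 1 from 5-6. Up to 3 fragments of 1 library lay over the same base, and with overlapping fragments of 1 library counted once, a choice made after the data were seen, the level of Dppa4 was 1.99 (1.14 to 3.23). With every fragment counted, such a stretch was rare. Of 41330 stretches of 2.5 kb beside autosomal coding genes, the median held 1 fragment and 35 (0.0847%) held 11 or more. The 3 fragments of library 5-1, of 223, 225 and 227 bp, were centred 12.409, 12.412 and 12.415 kb from the low end of Dppa4. Counting overlapping fragments of 1 library once left 16 fragments in the window. Those that dropped out were among the 11, so the stretch then held fewer than 11. Neither the level of 7.83 nor the share of such stretches was recomputed in that way. The stretch at Dppa4 was chosen after its values were seen. Strand was not known for Dppa4, so whether it lies beyond the start or the end of transcription is not given here.

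**Figure D3:**
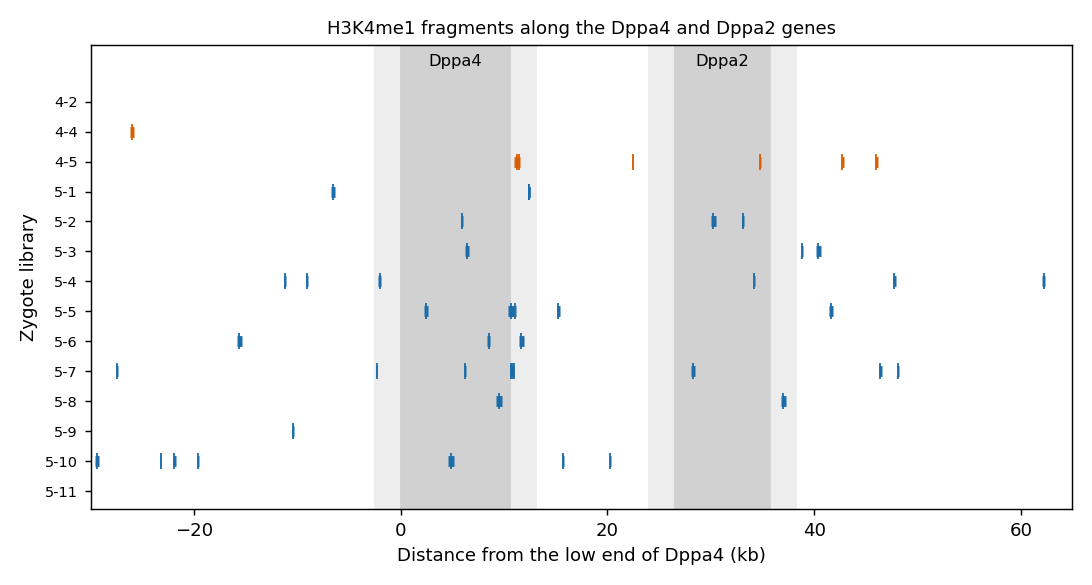
H3K4me1 fragments of each of 14 zygote libraries (rows) by distance from the low end of Dppa4 in kb (horizontal axis), with fragments of libraries named 4 in orange and of libraries named 5 in blue. Dark grey marks the gene bodies of Dppa4 and Dppa2 and light grey the 2.5 kb on each side; 11 fragments of 5 libraries gather just beyond the high end of Dppa4, and the stretch between both windows holds 4.

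The stretch between the windows of the pair, 10.981 kb long, held 4 fragments and a level of 0.648 (0.177 to 1.66). The flanks of Dppa4 had a level of 0.890 (0.724 to 1.08) and those of Dppa2 0.916 (0.748 to 1.11), and each set of flanks takes in the other gene. The 100 kb above Dppa2 had a level of 0.676 (0.478 to 0.928) and the 100 kb below Dppa4 had 1.03 (0.784 to 1.33). Dppa4 stood at 2.57 times its flanks (1.51 to 4.19), the only one of the 8 genes with such an interval above 1, beside 10.4% of coding genes above and 6.09% below, and at percentile 98.9 of them. Leaving out any 1 library kept this ratio between 2.19 and 2.84. The ratio counts the 11 fragments beyond the high end of the gene. It was not recomputed over the gene body alone or with overlapping fragments of 1 library counted once. Dppa2 stood at 0.818 times its flanks (0.293 to 1.84). Dppa3, which protects the maternal genome from demethylation and is no neighbour of the pair, had a level of 1.41 (0.566 to 2.90).

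Yap1, the Hippo coactivator, had an interval above 1, as did 43.1% of coding genes with 40 to 80 fragments expected. It spans 72.640 kb on chromosome 9 (7931999 to 8004638), and its window held 63 fragments where 43.6 were expected, a level of 1.44 (1.11 to 1.85). This was percentile 69.4 among 1637 coding genes of similar length, whose median was 1.22. Every one of the 14 libraries had at least 1 fragment, which holds for 8.06% of coding genes with a like number of fragments. Library levels ran from 0.396 in library 4-4 through a median of 1.29 to 13.7 (2.83 to 40) in library 5-11, whose 3 fragments were set against its shallow depth. Libraries 5-5 and 5-6 also had intervals above 1, with 10 and 11 fragments. The call rested on library 5-5: without it the level was 1.31 (0.984 to 1.72). The level was 0.771 (0.283 to 1.68) in libraries named 4, from 6 fragments, and 1.59 (1.20 to 2.06) in libraries named 5, from 57, a ratio of 0.485 (0.171 to 1.12).

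Of the 7 full bins inside the window of Yap1, 2 had an interval above 1. They were singled out after their values were seen, and the edges of the inner bins were not shifted. The bin between 5.1 and 15.1 kb downstream of the start held 15 fragments of 8 libraries and a level of 2.67 (1.49 to 4.40), and the bin between 35.1 and 45.1 kb downstream held 14 of 8 libraries and a level of 2.49 (1.36 to 4.18). Library 5-6 gave 4 fragments to each, and up to 5 fragments of the pool lay over the same base in the window, at most 3 of them from 1 library. The other 5 full bins had levels from 0.712 to 1.60. Over the 240299 bins of 10 kb on the autosomes, 7.9% had an interval above 1. The flanks of Yap1 had a level of 1.11 (0.926 to 1.32), and the gene stood at 1.30 times its flanks (0.943 to 1.77).

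Tead4 spans 73.671 kb on chromosome 6 (128227143 to 128300813), about the length of Yap1, and its window held 56 fragments, a level of 1.27 (0.957 to 1.64). Its fragments were spread unevenly over libraries. Levels ran from 0 in library 5-11 through a median of 0.491 to 2.97 in library 5-9. Library 5-6 gave 15 fragments and 5-4 gave 12, while 7 libraries, 5-10 with 141294 fragments among them, had 1 each. The share of library 5-6, 26.8%, was reached or passed by the leading library at 4.30% of coding genes with a like number of fragments. In libraries named 4 the level was 0.381 (0.0785 to 1.11), and in libraries named 5 it was 1.46 (1.09 to 1.91). The ratio was 0.261 (0.0522 to 0.805), the only one of the 8 genes with such an interval below 1, and none had one above 1. Of coding genes with a fragment, 2.68% had this interval below 1 and 4.37% above, and 7.7% of those with 40 to 80 fragments expected had it below. This ratio is not adjusted for the 8 genes compared, and its interval leaves out the spread between libraries. The 7 libraries with 1 fragment were all of those named 4, with levels from 0.310 to 0.476, and 5-1, 5-2, 5-3 and 5-10. The latter had levels from 0.226 to 0.507, so the low values were not confined to libraries named 4. Leaving out any of libraries 4-5, 5-2, 5-3 or 5-10 put the interval above 1, with levels of 1.34, 1.35, 1.33 and 1.38.

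The surroundings of Tead4 had a level above the gene's, within counting error. The flanks had 1.52 (1.30 to 1.77), the second highest of the 8, and the gene stood at 0.833 times its flanks (0.604 to 1.13). Without library 5-6 this ratio was 0.672 (0.465 to 0.954), with an interval below 1. Inside the gene no bin had an interval above 1, and the highest, 20 to 30 kb from the low end of the window, had 10 fragments of 4 libraries and a level of 1.78 (0.853 to 3.27). In the flanks 3 bins shared the highest level, among them the bin 60 to 70 kb beyond the high end, over the cell cycle factor gene Foxm1, with 12 fragments and a level of 2.14 (1.10 to 3.73).

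**Figure D4:**
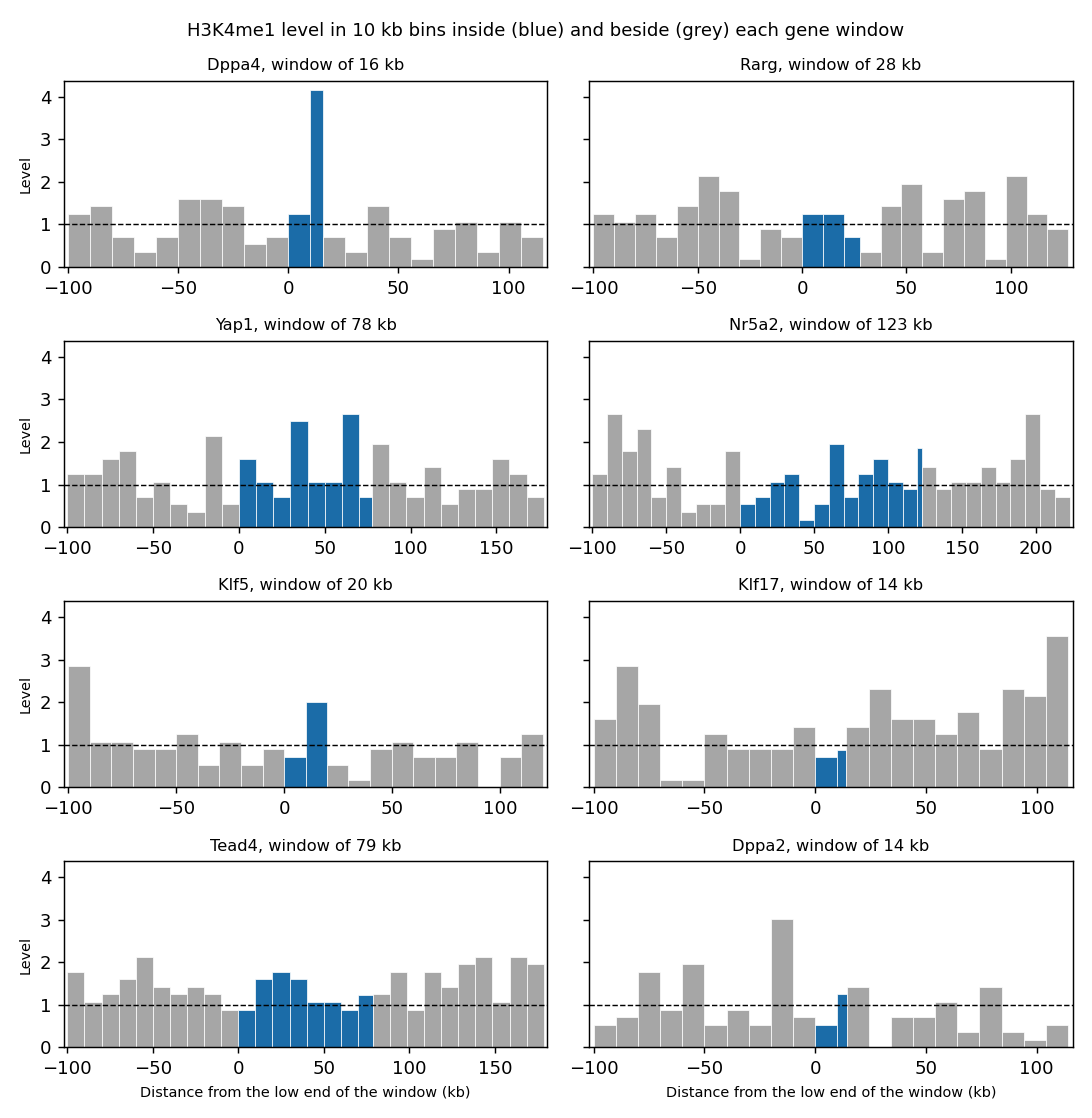
H3K4me1 level (vertical axis) in steps of 10 kb inside the window of each factor gene (blue) and over 100 kb on each side (grey), by distance from the low end of the window in kb; the last blue step can be narrower. The dashed line is the autosomal mean. Dppa4 rises to 4.16 in its last step and Yap1 to 2.67 and 2.49 in separate steps, while the highest grey step, 3.56, lies at the far right of Klf17.

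Of 17 genes of the Hippo pathway and the other TEAD factors, 7 (41.2%) had an interval above 1 and 1 (5.88%) below, with a median of 1.26. The shares of coding genes were 29.5% above and 7.17% below, and 43.1% above among those with 40 to 80 fragments expected. Tead3, a paralogue of Tead4, was highest with 2.51 (1.74 to 3.50), and Nf2, an upstream activator of the kinases, had 1.87 (1.53 to 2.27). Lats2, a kinase that phosphorylates Yap1, had 1.53 (1.15 to 2.00), Amotl2, which binds Yap1 in the cytoplasm, had 1.84 (1.15 to 2.78), and Wwtr1, which encodes the Yap1 paralogue TAZ, had 0.909 (0.700 to 1.16). Stk3, an upstream kinase, was lowest with 0.748 (0.620 to 0.895). Tead1 had 1.26 (1.07 to 1.46) and Tead2, another paralogue, had 0.942 (0.486 to 1.65).

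Of 7 genes known as targets of Yap1 and the TEAD factors, 1 (14.3%) had an interval above 1, beside 29.5% of coding genes, with a median of 0.784. That gene was Axl, a receptor tyrosine kinase, with 2.42 (1.81 to 3.19). The trophectoderm targets Cdx2 and Gata3 had 0.784 (0.254 to 1.83) and 0.992 (0.606 to 1.53), and Ankrd1 had 0.553 (0.151 to 1.41). Apart from Axl these genes had 2 to 20 fragments each, and leaving out any 1 library gave medians between 0.520 and 0.891.

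The factor genes had a median of 1.18 and 2 of 8 intervals above 1 (25%), beside 29.5% of coding genes, and the 3 lists that follow had shares of 25% to 30%, near that background. Other single-copy factors of genome activation had a median of 1.19 and 4 of 15 above. Their highest gene was Trim28, a corepressor, with 2.70 (1.60 to 4.26), and their lowest Smarca5, a chromatin remodeller, with 0.719 (0.426 to 1.14). Pluripotency factors had a median of 1.41 and 3 of 10 above, from Nanog with 2.49 (1.45 to 3.99) down to Prdm14 with 0.95 (0.455 to 1.75) among genes with at least 5 fragments expected. Trophectoderm factors had a median of 1.23 and 2 of 8 above, from Tfap2c with 2.58 (1.68 to 3.78) down to Eomes with 0.687 (0.223 to 1.60). Klf2, Klf4, Esrrb, Cdx2, Gata3, Tfap2a and Tfap2c stand in more than 1 of these lists. The differences between lists were not tested.

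**Figure D5:**
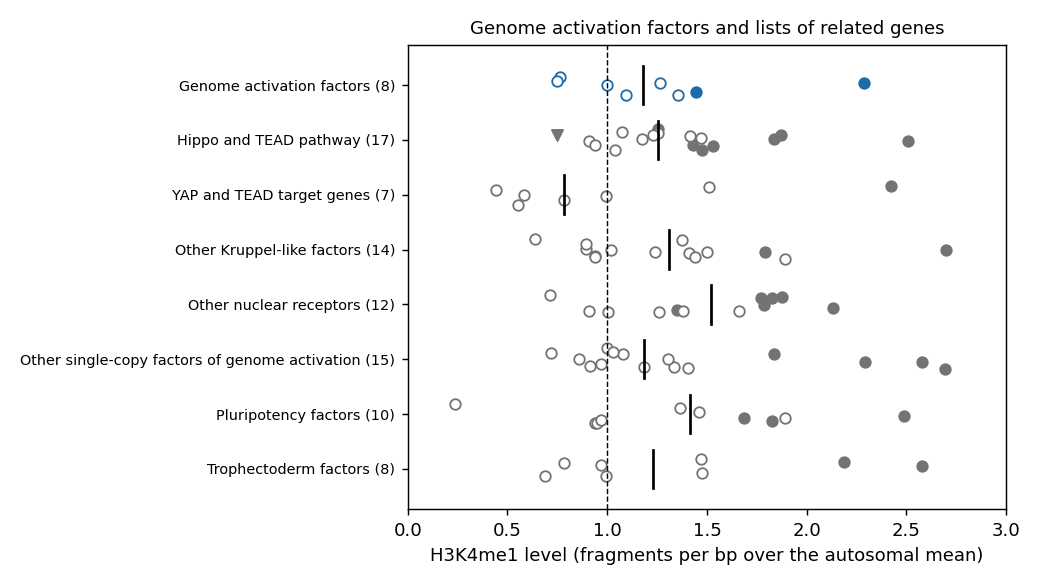
H3K4me1 level (horizontal axis) of each of the 8 factor genes (blue, top row) and of the genes of 7 related lists (grey), with the number of genes in brackets. Filled circles have an interval above 1, open circles an interval that holds 1, and the triangle an interval below 1; black bars are medians, 1.18 for the factor genes and 0.784 to 1.52 for the lists.

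The flanks of the 8 genes, summed by distance, had higher levels far from the genes than near them. The level was 1.27 between 50 and 100 kb and 1.07 within 50 kb, a ratio of 1.19 (1.05 to 1.35), and 1.22 (1.08 to 1.40) without the flanks of Dppa2, which share fragments with those of Dppa4. This split was chosen after the values were seen. No such value is given here for other coding genes, so the difference cannot be called particular to the 8 genes. By steps of 10 kb, the level was 1.05 (0.845 to 1.28) next to the windows and 0.979 (0.785 to 1.21) between 20 and 30 kb. Between 70 and 80 kb it was 1.37 (1.14 to 1.63), and between 90 and 100 kb 1.38 (1.15 to 1.64). The windows themselves, with 1.21, lay between these values. Of the 8 genes, 3 stood above their own flanks and 5 below, and apart from Dppa4 every such ratio had an interval that holds 1.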

How the data were processed

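Fragments of H3K4me1 CUT&Tag were measured in single mouse zygotes, and the deposited table gives 1 line per fragment with its position, its library and a count of 1, and the counts used here are numbers of such lines in a region. The build is mm10 per the submitters' processing notes, while no aligner, duplicate removal, filter or Tn5 shift is named in the labels. Both batches were pooled by the authors in 1 table, per the labels, so no test between samples was possible. Libraries needed 5000 fragments on chromosomes 1 to 19, X and Y. Midpoints placed the fragments. Intervals are exact 95% Poisson intervals, and for ratios exact conditional ones, and cover only counting error, because amplified reads lacking molecular identifiers need not be separate molecules. A count of 0 was given the level of 3 fragments as its limit. Chromosome lengths ran from the first to the last fragment. Gene positions came from RefSeq for GRCm38.p6, which gives no strand except in the promoter table. Flanks are 100 kb beyond the window on each side, in bins of 10 kb. Genes of similar length have windows between 0.8 and 1.25 times as long, and genes with a like number of fragments lie within 10%. The text names the 8 factors, the highest and lowest gene of each list among those with at least 5 fragments expected, and genes over the highest flank bins; further list and flank genes were picked with their values known. The genes, lists and markers were chosen with earlier results of these data known. Alternatives were the region counted, the libraries, their weight, the placing of fragments and the scaling. Computation used Python 3.11.15, NumPy 2.4.6, pandas 2.3.3 and SciPy 1.17.1. Levels and intervals were tested on simulated data of independent fragments without libraries. Such data cannot show how the intervals behave with overlapping fragments of 1 library or uneven libraries.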

Additional observations from a re-analysis of the deposited data

How the results depend on the processing

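Of 194 values under alternatives other than leaving out a library, 185 stayed within the counting interval of the value given above, or for a count within 1.5 times. Some of the 194 could hardly move. Leaving out flank bins above 10 times the mean removed none, as the highest had 3.56. Taking all libraries added 740 fragments, with 0 in the windows, and asking for 20000 fragments dropped only library 5-11. The intervals of the short genes are also wide. Over the gene body alone the level of Dppa4 was 1.18 and the number of genes with an interval above 1 was 1. In libraries named 4 alone the level was 1.28 at Dppa4, 0.771 at Yap1, on the other side of 1, and 0.381 at Tead4, the summed level was 0.943, and 0 genes had an interval above 1. With libraries weighted equally Yap1 had 2.27, where library 5-11 with 3 fragments counts as much as the deepest. With flanks of 50 kb the flanks of Nr5a2 had 1.05. For these values the cause was not tested. Leaving out any 1 library gave 1 to 3 genes with an interval above 1, and 1 only without library 5-5. The levels then ranged from 1.93 to 2.52 at Dppa4 and from 1.31 to 1.52 at Yap1. No paired analysis was possible because the table pools both batches and no result comes from a test between groups. Depth limits the short genes most, with 7.87 fragments expected at Klf17.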

Other observations

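Fragment lengths differed little from those of other genes. The median length was 322 bp in the pool, and at the factor genes it ran from 242.5 bp at Dppa4 to 339 bp at Klf5. Among coding genes with a like number of fragments, percentiles 5 and 95 of this median were 233 and 394 bp for Dppa4's number, 232 and 397 bp for that of Rarg, whose median was 244 bp, and 263 and 362 bp for that of Yap1, whose median was 267 bp. All 3 lay near the short end of these ranges and inside them. The 11 fragments beyond the high end of Dppa4 had a median of 227 bp and ran from 89 to 590 bp.

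The regions that hold the factor genes were not ordered as the genes. Within 1 Mb centred on the gene, the level was 1.68 at Klf17, 1.42 at Tead4, 1.31 at Rarg and 1.20 at Nr5a2, and 0.934 at Yap1, 0.801 at Klf5, 0.786 at Dppa2 and 0.785 at Dppa4. By value alone, Yap1, Klf5 and Dppa4 lay above 1 in regions below 1, and Klf17 below 1 in the highest region. The gene intervals of Klf5 (0.757 to 2.23) and Klf17 (0.280 to 1.66) hold 1. Those of Dppa4 (1.40 to 3.53) and Yap1 (1.11 to 1.85) lie above 1 and above the levels of their regions. No intervals are given for the regions, so whether each region differed from 1 beyond counting error was not tested. Coding genes within 500 kb numbered 35 at Rarg, 15 at Tead4, 14 at Klf17 and 11 at Yap1, and 4 at Klf5, Dppa2 and Dppa4. Among the 112 values of a factor gene in 1 library, 10 had an interval above 1, which is 8.93%, beside 6.85% over all coding genes and libraries. They fell at Yap1 and Tead4 (3 each), Dppa4 (2), Nr5a2 and Rarg. The 2 libraries under 5000 fragments, with 740 fragments in all, had 0 in the 8 windows.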
